A study of Homo sapiens with 4 samples.

Results

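The pro-apoptotic BCL2 family comprised 10 genes, BAX, BAK1, BCL2L11, BBC3, PMAIP1, BID, BAD, BIK, BMF and HRK. They were taken by gene symbol from the 64252 gene IDs of an RNA-seq count table, where each symbol matched 1 ID. All 10 passed the filter on low counts and were among the 19897 IDs tested. The libraries came from Jurkat, a human T cell acute lymphoblastic leukemia line. Of the 4 libraries, 2 were from cells transfected with a hairpin of scrambled sequence (sh-Scb, the controls below) and 2 from cells transfected with one directed at SOX4 (sh-SOX4), a transcription factor of early lymphocyte development. Both groups are 1 cell line that carries a short hairpin RNA. The sources used here give neither the hairpin's sequence nor the time of harvest. The labels do not say whether libraries of a group are separate cultures, and p-values therefore measure a spread between libraries that may be technical.

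The proteins of this family carry a short helix called the BH3 domain. BAX and BAK1 are the effectors: once activated they oligomerize in the outer mitochondrial membrane and open pores that release cytochrome c. The other members have the BH3 helix as their only BCL2 homology domain. BCL2L11 (BIM), BID and BBC3 (PUMA) can bind the effectors directly as well as the survival proteins, whereas PMAIP1 (NOXA), BAD, BIK, BMF and HRK act mainly by occupying the groove of survival proteins such as BCL2, BCL2L1 and MCL1. In the T lineage, BIM is known for the deletion of self-reactive thymocytes and for the death of T cells deprived of cytokine. Some Jurkat sublines are known to carry frameshift mutations in BAX, and RNA counts do not show whether a protein is made.

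The libraries held between 29093287 and 36636219 counts, and 3 counts, the limit that a count of 0 allows, correspond to 0.0794 to 0.101 CPM, the depth-scaled unit used below (library total times TMM factor). SOX4 was at 271 and 277 CPM in the controls and at 191 and 199 CPM under sh-SOX4, which left 71.0% of the control level. All 9 T lineage markers checked, CD3E and LCK among them, were expressed. Their summed level was 1502 to 1512 CPM in the controls and 1877 to 1886 CPM under sh-SOX4. By the edgeR test described below, 6 of them were higher under sh-SOX4, CD247 was lower, and CD7 and LCK did not pass. Of 7 myeloid markers, LYZ had no counts in any library, and the summed level was 6.11 to 6.64 CPM in the controls and 27.4 to 27.7 CPM under sh-SOX4, S100A9 holding most of it. The summed level of 4 B cell markers, nearly all of it CD79A, was 66.5 to 68.4 CPM in the controls and 14.1 to 14.6 CPM under sh-SOX4. The part of these differences in the results below was not tested. In bulk RNA, fewer cells that express a gene and less of its RNA per cell cannot be told apart.

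Promoter windows were read from RefSeq on GRCh38.p14 for the 9 members it lists, BIK being the other, as 15 windows of 300 bases, 250 before a transcript start and 50 after it. Several windows of BID, and those of BAD, overlap each other. The motifs searched, on both strands, were CACGTG, the E-box that MYC and MAX bind; GTAAACA, a FOXO element; TGATGNAA, an element of ATF4 and C/EBP factors; and GGGCGG, the GC box of SP1. No match of one motif overlapped a match of another in these windows. The 250 bases before the start are shown for the members with the largest rise (BID) and the largest fall (BMF), and for BAX and BCL2L11, which moved in opposite directions and hold the E-box and the FOXO element. Capitals mark CACGTG in BAX and BID, GTAAACA in BCL2L11 and GGGCGG in BMF. BID has 5 windows and BMF has 2. The window shown for each was picked for holding the most matches of its marked motif. A tie went to the lower coordinate.
BAX: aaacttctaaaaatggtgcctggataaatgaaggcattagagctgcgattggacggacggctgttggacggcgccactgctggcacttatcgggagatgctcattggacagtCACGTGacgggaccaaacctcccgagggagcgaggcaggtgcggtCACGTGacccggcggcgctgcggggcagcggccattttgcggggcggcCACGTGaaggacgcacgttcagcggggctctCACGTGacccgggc
BID: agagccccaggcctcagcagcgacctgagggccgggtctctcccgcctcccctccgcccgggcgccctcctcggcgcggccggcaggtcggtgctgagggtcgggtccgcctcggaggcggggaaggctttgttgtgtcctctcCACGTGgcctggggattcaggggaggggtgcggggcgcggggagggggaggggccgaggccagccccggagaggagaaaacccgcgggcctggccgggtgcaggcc
BCL2L11: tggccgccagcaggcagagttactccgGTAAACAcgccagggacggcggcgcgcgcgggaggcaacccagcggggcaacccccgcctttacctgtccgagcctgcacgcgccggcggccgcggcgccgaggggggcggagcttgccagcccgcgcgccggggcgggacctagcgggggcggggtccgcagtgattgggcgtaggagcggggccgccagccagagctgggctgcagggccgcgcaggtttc
BMF: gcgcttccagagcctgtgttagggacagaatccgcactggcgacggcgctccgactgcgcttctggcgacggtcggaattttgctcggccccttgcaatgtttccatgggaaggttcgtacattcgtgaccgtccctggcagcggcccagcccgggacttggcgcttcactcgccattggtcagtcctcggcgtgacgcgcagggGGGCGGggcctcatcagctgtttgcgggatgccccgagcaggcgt

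The BAX sequence lies on the plus strand at chr19:48954625-48954874 and holds 4 E-boxes, which begin 138, 93, 45 and 14 bases before the start. At least 1 E-box stood in 7.26% of all 35116 windows, and 4 or more stood in 5 of them, 0.0142%. BID, on the minus strand at chr22:17773984-17774233, holds 1 E-box that begins 106 bases before this start. The overlapping window from the next start upstream holds this same E-box, and the other 3 windows of BID hold none. BBC3, which did not pass the test below, was the third member with an E-box. BAK1, PMAIP1 and BAD, which rose, hold none in their windows. BCL2L11, on the plus strand at chr2:111120664-111120913, was the 1 member with the FOXO element, which was present in 3.42% of all windows. BMF, on the minus strand at chr15:40108880-40109129, holds neither element in either of its windows. GC boxes were common, in 45.0% of all windows and in windows of 8 of the 9 members. HRK was the 1 member with a match to TGATGNAA, which 3.62% of windows hold. These matches describe letters in a window and not binding in these cells.

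In the comparison of sh-SOX4 with sh-Scb, which asks how the family differs under the hairpin directed at SOX4, the members split. Effects of that hairpin other than lower SOX4 were not tested. BAX, BAK1, BID, PMAIP1 and BAD were higher in sh-SOX4, by 1.42-fold to 1.72-fold. BMF, HRK and BCL2L11 were lower, BMF by 2.61-fold. BBC3 and BIK did not pass the test. By edgeR's quasi-likelihood test at a Benjamini-Hochberg adjusted p under 0.05, 5 of 10 members were thus higher, where 23.2% of all tested IDs were, and 3 were lower, where 20.9% of all tested IDs were. In either direction 8 of 10 members were called, against 44.1% of all tested IDs. That share includes IDs with few counts. With a filter at 1 CPM or more in 2 libraries it was larger, 4448 higher and 4272 lower of 16182 IDs. The 44.1% set beside the lists below has the same limit. Members and lists were also chosen with earlier results of these data known, so these shares cannot show an excess over all IDs. The median log2 fold change was 0.37 over the members and -0.01 over all IDs tested. In 9 of 10 members, all but BBC3, the levels of the 2 groups did not overlap, which was also so for 72.9% of all tested IDs. With counts scaled to library totals alone, 40.8% of all calls were higher in place of 52.5%, and 5 members were still called higher and 3 lower.

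**Figure D1:**
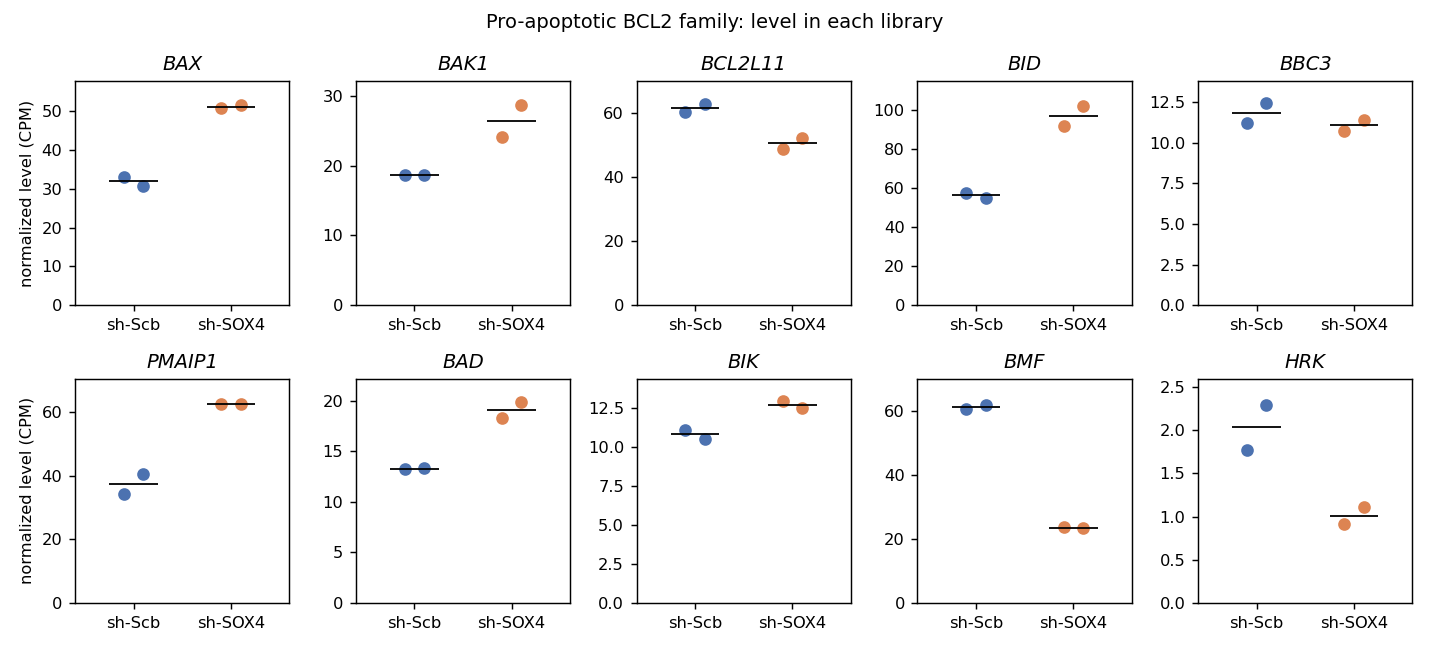
Normalized level (CPM, linear axis from 0, a scale of its own for each gene) of the 10 members in each of the 4 libraries; points are libraries and the black line is the mean of a group. The 2 sh-SOX4 points of BAX, BAK1, BID, PMAIP1, BAD and BIK lie above both sh-Scb points, those of BCL2L11, BMF and HRK lie below, and those of BBC3 overlap.

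**Figure D2:**
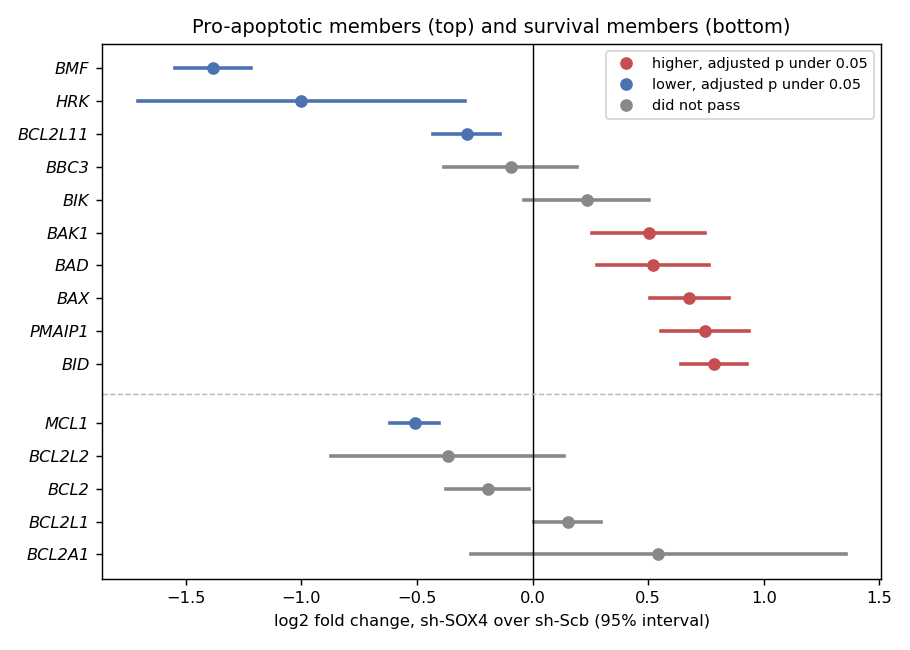
Log2 fold change of sh-SOX4 over sh-Scb with its 95% interval from edgeR's model (not adjusted for the number of genes), for the 10 pro-apoptotic members above the dashed line and the 5 tested survival members below it. BMF is the lowest at -1.38 and BID the highest pro-apoptotic member at 0.79, while MCL1 is the 1 survival member that passed.

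Both effectors rose. BAX (ENSG00000087088, chromosome 19, 48954815 to 48961798 on GRCh38, plus strand) was at 33.1 and 30.8 CPM in the controls and at 50.9 and 51.5 CPM under sh-SOX4. Every sh-SOX4 value exceeded every sh-Scb value, and the gap was far wider than the spread within a group. Its log2 fold change was 0.68 (SE 0.076, 95% interval 0.51 to 0.85), with an edgeR adjusted p of 5.64e-05. BAK1, the effector that resides on mitochondria in healthy cells (ENSG00000030110, chromosome 6, 33572547 to 33580293, minus strand), was at 18.7 CPM in both controls and at 24.1 and 28.7 CPM under sh-SOX4. The sh-SOX4 libraries differed from each other, and both lay above the controls. The change was 0.50 on the log2 scale (SE 0.11, 95% interval 0.26 to 0.75, edgeR adjusted p 0.00397). Of the exonic bases of BAK1, 4.11% lie in GGNBP1 on the other strand, and the pseudogene copy BAK1P1 had 6 to 22 counts per library against 562 to 855 for BAK1.

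The direct activators went 3 ways. BID, which caspase-8 cleaves to link death receptors to mitochondria (ENSG00000015475, chromosome 22, 17734138 to 17774770, minus strand), rose most of all members. It was counted 2173 and 1661 times in the controls and 2922 and 3041 times under sh-SOX4. Its level was 57.5 and 55.1 CPM in the controls and 92.1 and 102 CPM under sh-SOX4, a log2 fold change of 0.79 (SE 0.064, 95% interval 0.64 to 0.93, edgeR adjusted p 6.62e-06). The sh-SOX4 libraries spread by more than the controls did, without approaching them.

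BCL2L11, which encodes BIM (ENSG00000153094, chromosome 2, 111119378 to 111168447, plus strand), fell. It was at 60.4 and 62.9 CPM in the controls and at 48.8 and 52.2 CPM under sh-SOX4, so that 82.0% of the control level remained. Its log2 fold change of -0.29 (SE 0.066, 95% interval -0.43 to -0.14, edgeR adjusted p 0.00535) was the smallest in size among the 8 called members. Tested against a change of 1.2-fold, it did not pass, with an adjusted p of 0.341, the highest of its adjusted p-values, which began at 0.000947 over all settings. Of its exonic bases, 10.9% lie in MIR4435-2HG, a noncoding gene on the other strand that rose by 0.64 on the log2 scale, and the counting is not stated to use strand. The part of those reads in the BCL2L11 count was not tested.

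BBC3, which encodes PUMA, the classical p53-induced member (ENSG00000105327, chromosome 19, 47220822 to 47232766, minus strand), was at 11.2 and 12.4 CPM in the controls and at 10.7 and 11.4 CPM under sh-SOX4. The groups overlapped, and the log2 fold change of -0.095 had a 95% interval of -0.38 to 0.19 (edgeR adjusted p 0.582). Changes of more than 0.38 in either direction lie outside that interval, which covers a single gene.

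Among the sensitizers, PMAIP1 and BAD rose. PMAIP1 encodes NOXA, a partner of MCL1 that promotes its degradation (ENSG00000141682, chromosome 18, 59899948 to 59904306, plus strand). It was at 34.2 and 40.6 CPM in the controls and at 62.8 and 62.7 CPM under sh-SOX4. Here the controls were the group that spread, and the sh-SOX4 libraries nearly coincided. The log2 fold change was 0.75 (SE 0.085, 95% interval 0.56 to 0.94, edgeR adjusted p 6.84e-05). BAD, which survival kinases phosphorylate so that 14-3-3 proteins hold it in the cytosol (ENSG00000002330, chromosome 11, 64269830 to 64284704, minus strand), was at 13.2 and 13.3 CPM in the controls and at 18.3 and 19.8 CPM under sh-SOX4. It rose by 0.52 on the log2 scale (SE 0.11, 95% interval 0.28 to 0.76, edgeR adjusted p 0.00309). BAD shares 23.7% of its exonic bases with GPR137 on the other strand, whose log2 fold change was -0.22 with an edgeR adjusted p of 0.0924.

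BMF and HRK fell. BMF, which is tethered to the actin-bound myosin V motor through a dynein light chain (ENSG00000104081, chromosome 15, 40087890 to 40108892, minus strand), changed by more than any other member. It was counted 2299 and 1862 times in the controls and 754 and 693 times under sh-SOX4, or 60.8 and 61.8 CPM against 23.8 and 23.3 CPM. The libraries of each group agree closely, and 38.4% of the control level remained. The log2 fold change was -1.38 (SE 0.073, 95% interval -1.55 to -1.22, edgeR adjusted p 4.11e-07). BMF-AS1, an antisense gene that covers 8.46% of its exonic bases, had no counts in any library. All 461 bases of BMF-AS1 are shared, and the counting is not stated to use strand. Whether its reads entered the BMF count was not tested.

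HRK, known chiefly from neurons deprived of growth factor (ENSG00000135116, chromosome 12, 116856144 to 116881441, minus strand), was the member with the fewest reads. It was counted 67 and 69 times in the controls and 29 and 33 times under sh-SOX4, or 1.77 and 2.29 CPM against 0.914 and 1.11 CPM. Its log2 fold change was -1.001, with a wide 95% interval of -1.71 to -0.29 (edgeR adjusted p 0.0272). The call was lost with DESeq2 (adjusted p 0.107), when sh-Scb replicate 2 was left out (0.156), when sh-SOX4 replicate 1 was (0.109) and in the test against a 1.2-fold change (0.0559), and the adjusted p ran from 0.0178 to 0.156 over all settings. BIK, a member of the endoplasmic reticulum membrane (ENSG00000100290, chromosome 22, 43110748 to 43129712, plus strand), was at 11.1 and 10.5 CPM in the controls and at 13.0 and 12.5 CPM under sh-SOX4. Its groups did not overlap, and its log2 fold change of 0.23 (95% interval -0.037 to 0.51) had an edgeR adjusted p of 0.147.

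Levels between members were compared per length, as CPM per kilobase of exon in GENCODE release 29, which counts all annotated exons of a gene whether or not Jurkat uses them. On that scale PMAIP1 led in sh-Scb at 16.7 ± 2.02 (SD, n = 2), followed by BID at 12.7 ± 0.370 and BAX at 12.4 ± 0.639, whose ranges overlapped. BIK at 11.4 ± 0.434 and BMF at 11.3 ± 0.131 could not be separated either. BCL2L11, BAK1 and BAD followed at 9.26 ± 0.268, 8.44 ± 0.00465 and 7.77 ± 0.0367, then BBC3 at 3.72 ± 0.281. HRK was far below the rest at 0.296 ± 0.0535. In sh-SOX4 the first 4 places were the same, PMAIP1 reaching 28.1 ± 0.0296, whereas BMF went from place 5 to place 8 at 4.32 ± 0.0642. BAK1 at 11.9 ± 1.46 and BAD at 11.1 ± 0.647 then stood above BCL2L11 at 7.59 ± 0.361, and the ranges of BAK1 and BAD overlapped.

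The make-up of the family was described by each member's share of the summed per-length level, with no test. BMF held 12.0% and 12.0% of it in the controls and 3.67% and 3.43% under sh-SOX4. The share of BCL2L11 was 9.76% and 9.96% in the controls and 6.17% and 6.30% under sh-SOX4. PMAIP1 went the other way, from 16.5% and 19.2% to 23.6% and 22.5%, and BID from 13.9% and 13.1% to 17.4% and 18.5%. Shares of one whole are tied to each other, so a share can shift without a change in the gene's own level, and that of BBC3, whose level did not pass the test, went from 3.79% and 4.13% to 2.83% and 2.88%.

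**Figure D3:**
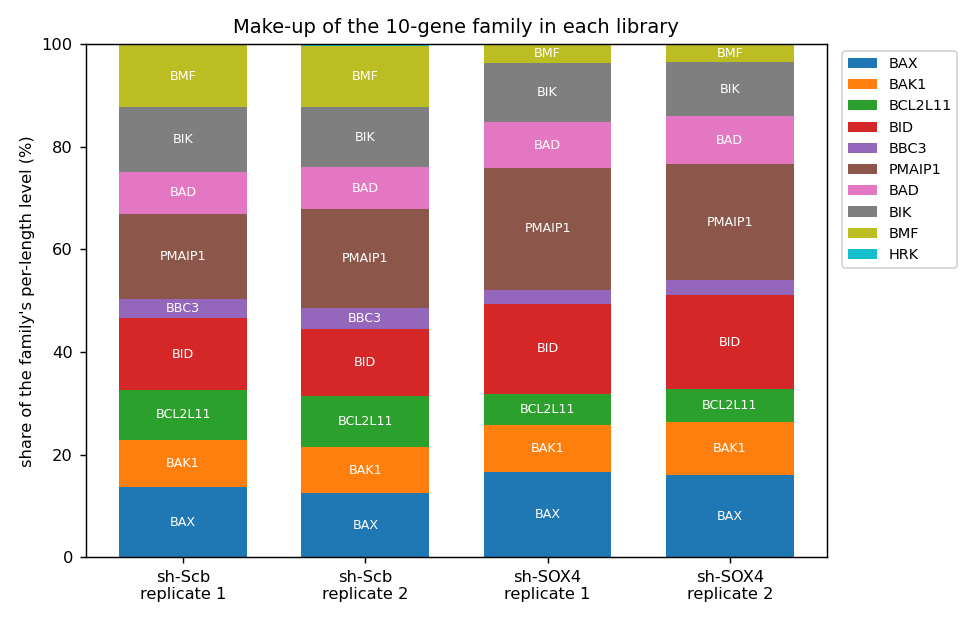
Share (%) of the family's summed CPM per kilobase held by each of the 10 members, 1 stacked bar per library. BMF shrinks from 12.0% in both sh-Scb bars to 3.67% and 3.43% in the sh-SOX4 bars while the shares of PMAIP1 and BID widen; HRK, at under 1% in every bar, is too thin to see.

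Of 6 survival BCL2 genes, 5 were tested, and 1 fell by edgeR's test, 20% of those tested, where 20.9% of all tested IDs were lower. This was MCL1, the short-lived survival protein that NOXA and BIM bind, at 232 and 226 CPM in the controls and 165 and 156 CPM under sh-SOX4, a log2 fold change of -0.51 (SE 0.047, edgeR adjusted p 1.51e-05). BCL2 (log2 fold change -0.19, adjusted p 0.0765), BCL2L1, which encodes BCL-XL (0.15, adjusted p 0.0832), BCL2L2 (-0.37, adjusted p 0.218) and BCL2A1 (0.54, adjusted p 0.256) did not pass edgeR's test. With all 4 libraries, none was called higher by edgeR, DESeq2 or limma-voom. At an unadjusted edgeR p under 0.05, 1, BCL2L1, was higher and 2, MCL1 and BCL2, were lower. BCL2L1 was called higher without sh-Scb replicate 1 (adjusted p 0.0111), and BCL2 was called lower with scaling to library totals (adjusted p 0.0140). BCL2L1 shares 43.0% of its exonic bases with other genes.

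Set against the survival genes on the per-length scale, the effectors summed to 21.2 and 20.3 CPM per kilobase in the controls and 30.6 and 32.9 under sh-SOX4. The 6 survival genes summed to 81.5 and 77.9 in the controls and 67.0 and 65.8 under sh-SOX4. MCL1 held most of that sum, at a mean of 52.3 in the controls and 36.7 under sh-SOX4. The mean of BCL2L1 went from 22.4 to 24.9. The ratio of effector to survival transcripts was thus 0.261 in both controls and 0.457 and 0.500 under sh-SOX4. For the 8 BH3-only members together it was 0.879 and 0.956 in the controls and 1.32 and 1.39 under sh-SOX4, and their sum was 71.6 and 74.5 CPM per kilobase in the controls and 88.3 and 91.6 under sh-SOX4, the falls of BMF, BCL2L11 and HRK included. These ratios are of transcripts, follow from the genes given above, and were not tested.

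Other relatives of the family moved both ways. Of 11 listed, 10 were tested, 4 rose and 2 fell, 60% called against the 44.1% of all tested IDs. BNIP3 and BNIP3L, mitochondrial receptors for mitophagy that hypoxia is known to induce, had the largest changes. BNIP3 was at 169 and 183 CPM in the controls and at 48.9 and 51.8 CPM under sh-SOX4, a fall of 1.81 on the log2 scale (SE 0.059, edgeR adjusted p 2.61e-08), with 39 annotated pseudogene copies that make its level uncertain. BNIP3L was at 379 and 380 CPM against 146 and 138 CPM (log2 fold change -1.42, SE 0.045). BCL2L13, another mitophagy receptor, rose by 0.40 (SE 0.064) and BNIP1, a SNARE protein of the endoplasmic reticulum, by 0.55 (SE 0.10). Against a 1.2-fold change 2 of the 4 rises were called.

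Of 17 transcription regulators known to act on member genes, 16 were tested, 5 rose and 5 fell, 62.5% called against the 44.1% of all tested IDs, with a median log2 fold change of -0.058. MYC, which is known to act on BAX and BCL2L11 among many genes, was at 49.2 and 52.1 CPM in the controls and at 192 and 194 CPM under sh-SOX4 (log2 fold change 1.93, SE 0.052, edgeR adjusted p 1.10e-08). IRF1, an interferon-induced activator whose exons partly overlap those of other genes, rose by 0.59 (SE 0.046). HIF1A, the oxygen-regulated factor, fell by 0.91 (SE 0.055) and SMAD3, a mediator of TGF-beta signalling, fell by 0.93 (SE 0.083) on the log2 scale. FOXO1 and FOXO3, chosen after their values were seen because they are known inducers of BCL2L11, had log2 fold changes of -0.089 (95% interval -0.32 to 0.14) and -0.085 (95% interval -0.20 to 0.032), and neither passed edgeR's test. The number of regulators lower was 3 without sh-SOX4 replicate 2 and 3 against a 1.2-fold change.

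Proteins that hold, modify or receive the members were tested through 31 genes, of which 11 rose and 6 fell, 54.8% against the 44.1% of all tested IDs. DYNLL1, the dynein light chain known for holding BIM, rose by 0.48 on the log2 scale (SE 0.047, edgeR adjusted p 2.50e-05), from 117 and 113 CPM to 160 CPM in both sh-SOX4 libraries. DYNLL2, the light chain known for tethering BMF to myosin V, did not pass edgeR's test, with overlapping groups and a log2 fold change of 0.022 (95% interval -0.12 to 0.17, adjusted p 0.811). Of the kinases that phosphorylate BAD, PIM1 fell from 29.8 and 31.2 CPM to 14.2 and 16.2 CPM and PIM3 rose from 66.1 and 65.2 CPM to 94.2 and 103 CPM. Of the other BAD kinases listed, RPS6KA1 rose by 0.46 (SE 0.062) and AKT1 fell by 0.17 (SE 0.047) on the log2 scale, and PIM2, AKT2 and RPS6KB1 did not pass edgeR's test. Of the genes listed for proteins that hold BAD in the cytosol, YWHAB, YWHAG, YWHAH, YWHAQ and YWHAZ rose, by 0.11 to 0.34 on the log2 scale. YWHAE and SFN did not pass edgeR's test. YWHAB, YWHAE, YWHAQ and YWHAZ have annotated pseudogene copies, so their levels are uncertain. DYNLL2, these other kinases and the genes for proteins that hold BAD were named after their values were seen. VDAC1, a channel of the outer mitochondrial membrane, rose by 0.42 (SE 0.042). DYNLL1 has 7 annotated pseudogene copies and VDAC1 has 13, so their levels are uncertain. Fewer were lower without sh-SOX4 replicate 1, at 3, and against a 1.2-fold change 4 were higher and 2 lower.

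Of 16 genes that act after the pore opens, all tested, 12 rose and 2 fell, 87.5% called against the 44.1% of all tested IDs, with a median log2 fold change of 0.24. DFFA, the inhibitor and chaperone of the apoptotic nuclease, rose by 0.75 (SE 0.052), CYCS, cytochrome c, by 0.45 (SE 0.065) and AIFM1, apoptosis-inducing factor, by 0.35 (SE 0.052). CYCS has 40 annotated pseudogene copies, and its level is uncertain. The 2 that fell were the core of the apoptosome, in which cytochrome c and APAF1 activate caspase-9. APAF1 was at 91.0 and 96.0 CPM in the controls and 50.1 and 48.2 CPM under sh-SOX4 (log2 fold change -0.93, SE 0.058, edgeR adjusted p 1.19e-06), and CASP9, named because only 2 genes fell, changed by -0.43 (SE 0.12, edgeR adjusted p 0.0175). Many rises were small: 5 were called with scaling to library totals, 6 without sh-SOX4 replicate 2 and 4 against a 1.2-fold change. The number that fell was 1 when sh-Scb replicate 1 or sh-SOX4 replicate 1 was left out, and against a 1.2-fold change.

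**Figure D4:**
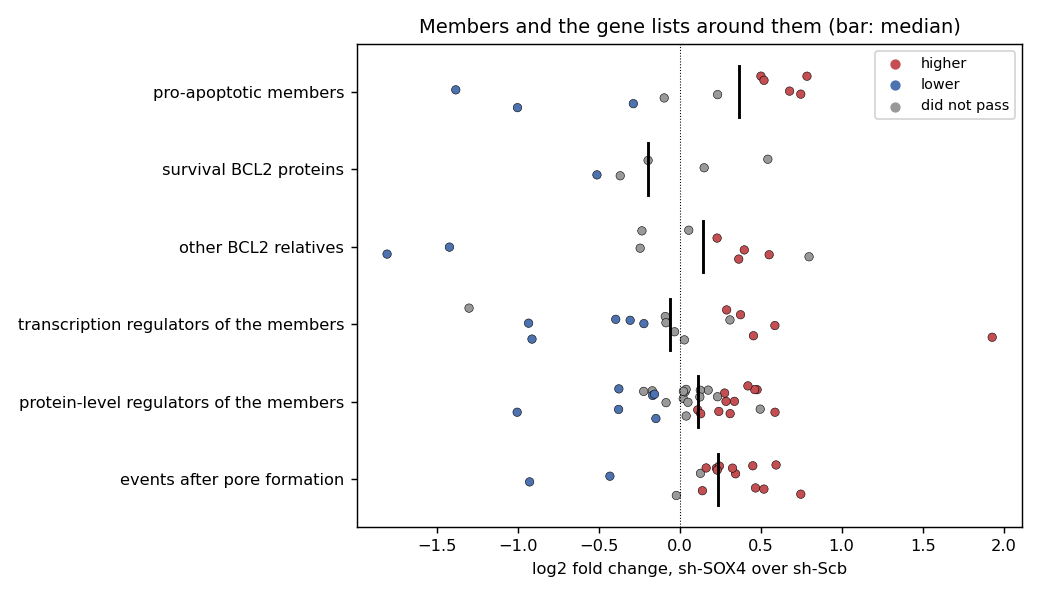
Log2 fold change of sh-SOX4 over sh-Scb for the tested genes of the family and of the 5 lists around it; each point is a gene, coloured by edgeR's call, and the black bar is the median of a list. The 10 members spread from -1.38 to 0.79 around a median of 0.37, and the rightmost point, at 1.93, is MYC.

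Genes whose pattern over the 4 libraries was most like that of the extreme members were found among 11865 genes by the distance between log2 CPM values, each centred on the gene's own mean. For BMF they were ANKZF1 at a distance of 0.042, HSD17B7P2 at 0.043 and SQLE, the squalene epoxidase, at 0.051. SQLE went from 389 and 390 CPM in the controls to 149.5 and 153 CPM under sh-SOX4. For BID they included AHCY, the enzyme that hydrolyses S-adenosylhomocysteine, at 0.014 and DDX39A, an RNA helicase, at 0.018. AHCY went from 94.8 and 92.0 CPM to 153 and 170 CPM. With 4 libraries in 2 groups, likeness here means a fold change of like size and a like difference between replicates.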

How the data were processed

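The measured data were RNA-seq counts from 4 Jurkat libraries. The deposited file holds whole-number counts per Ensembl gene ID, not normalized. HISAT2 2.2.0, StringTie and the build hg38 are listed in the submitters' processing notes. The sources used here do not give their roles, the annotation, the strand setting or filters. Control columns are headed NC and were taken as sh-Scb, since the other columns name SOX4 and the replicate numbers match.

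In R 4.3.3, edgeR 4.0.16 was run with filterByExpr at a minimum count of 10 and a minimum total of 15, TMM scaling, and its robust quasi-likelihood model by group, with 2 residual degrees of freedom and a common biological coefficient of variation of 0.101. Benjamini-Hochberg adjustment was over all 19897 tested IDs. The SE is the size of the log2 fold change divided by the square root of F. Coordinates, exon lengths and exon overlaps came from GENCODE release 29, whose assembly, GRCh38, is the one called hg38, and promoters from RefSeq. Symbols were found for 56105 of 64252 IDs. The median chi-square per gene between libraries was 1.70 for the controls and 1.59 for sh-SOX4, where sampling alone gives 0.455, and no library was taken for a duplicate. Floors cover counting error only.

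All 10 members were named, with SOX4, the 4 genes of each list with the smallest p, and the 3 genes nearest to the members with the largest called rise and fall, of which 1 is not reported here. Members and lists were chosen with earlier results of these data known. The settings varied were the scaling (median-ratio factors or library totals), the filter (none, or 1 CPM or more in 2 libraries), the replicate number as a block, leaving out each library, the tool (DESeq2 1.42.0 or limma-voom of limma 3.58.1) and a test against 1.2-fold. A fit limited to genes that share under 20% of their exonic bases was chosen after seeing the data. Scripts were tested on simulated data. Figures were drawn with matplotlib 3.10.9.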

Additional observations from a re-analysis of the deposited data

How the results depend on the processing

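All 10 members kept their direction in every setting in which they were fitted (14 including the one reported; 13 for BAD, which the overlap limit leaves out). BAX, BAK1, BID, PMAIP1, BAD and BMF were called in each of those that kept all 4 libraries, and BBC3 and BIK in none of those. A fit with a library left out has 1 library in a group. Its spread within groups then comes from the other group, so passing it is not a stricter check. Against a 1.2-fold change, 2757 of all tested IDs were higher and 2591 lower, in place of 4609 and 4166; 1 member was lower, BCL2L11 (-0.29) and HRK (-1.001) losing their calls, while in the lists 2 other relatives were higher, 3 transcription regulators lower, 4 protein-level regulators higher and 2 lower, and 4 genes acting after pore formation higher and 1 lower. HRK was also lost with DESeq2 (-1.003), and its log2 fold change ran from -1.18 to -0.81 with a library left out. With library totals, 2 survival genes were lower and 5 genes acting after pore formation higher. Leaving out each library gave 0 to 1 survival genes higher, 3 to 5 transcription regulators lower, 3 to 5 protein-level regulators lower, and 6 to 10 genes acting after pore formation higher and 1 to 2 lower. With the replicate number as a block, 5 members were higher and 3 lower, with 4422 and 3956 of all IDs. The replicate differences of both groups correlated at -0.028 across 12510 genes. With 1 such difference per group, this value cannot show whether libraries of the same number share more than the number. A threshold at a higher fold removes small changes by construction; the cause of the other shifts was not tested. HRK, at 29 to 69 counts per library, is the member whose depth limits its precision most.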
